A study of Homo sapiens with 18 samples.

Results

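The proteasome genes were followed in U251, a human glioblastoma cell line, after silencing of MPS1, a kinase of the mitotic checkpoint encoded by TTK. Every gene of the array's annotation table with a symbol of PSMA, PSMB, PSMC, PSMD, PSME, PSMF or PSMG and a number was taken. Pseudogenes and probe sets that name several genes were not used. Where a gene had several probe sets, the brightest by its mean over the 18 arrays stood for it. This gave 39 genes of 7825 tested and of 11963 named. All 39 passed the filter on low values. PSMA6 and PSME2 lay only on probe sets shared with other genes and were not analysed here.

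The 18 Affymetrix arrays formed 9 groups of 2. U251 cells were left untransfected (Control), transfected with the siRNA labelled siNegative (siNeg), or transfected with an MPS1 siRNA (siMPS1), and each was sampled at 6, 24 and 48 h. All groups are the same cell line with no other treatment named in the labels. Nothing in the labels says that arrays of 1 group are separate cultures, so p-values measure only the spread between arrays, which may be technical. Each array read RNA pooled from a culture, so a shift in every cell and a shift in a share of the cells cannot be told apart. Values below are log2(signal + 3), in which signal is the deposited MAS5 signal on its linear scale. A gene was called where the limma fit over all 18 arrays gave a Benjamini-Hochberg adjusted p under 0.05 over the 7825 genes, and "rose" and "fell" are used only of called genes.

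TTK, the silenced gene, differed from siNeg by -1.43 at 6 h, -1.88 at 24 h and -2.30 at 48 h (SE 0.21 each, adjusted p = 0.000809, 8.83e-06 and 2.37e-07). Among glial and glioblastoma markers, VIM, NES, CD44, SOX2 and SLC1A3 lay above the array median on all 18 arrays. GFAP was under it on 15 of 18 arrays, and S100B, AQP4 and ALDH1L1 were under it on all 18, so those astrocyte markers were low in this line, though no detection call was used. Likewise 4 of 5 epithelial markers, 5 of 5 blood markers and 1 of 2 neuronal markers were under the median on all 18 arrays, while the neuronal SYT1 was above it on each.

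The proteasome degrades proteins that carry ubiquitin chains. Its core particle is a barrel in which alpha subunits form the outer rings and the gate, and beta subunits form the inner rings, 3 of them with catalytic sites. Regulatory caps bind the barrel, recognise and remove ubiquitin, and feed the unfolded substrate in with a ring of ATPases. Interferon induces 3 alternative catalytic subunits and an alternative activator, which favour the making of peptides for MHC class I. When proteasome activity is short, the transcription factor NFE2L1 raises the subunit genes together through antioxidant response elements in their promoters. By role the 39 genes were 16 of the core (6 alpha, 7 standard beta and 3 interferon-inducible beta subunits), 14 of the cap (5 ATPases and 9 others), 5 assembly chaperones and 4 activators, among which the inhibitor PSMF1 is counted.

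Promoters were read from RefSeq (GRCh38.p14), from 250 bases before to 50 bases after each start. Of the 39 genes 34 had an entry, and PSMA7, PSMB1, PSMB6, PSMB7 and PSMD4 did not. The core of the antioxidant response element, TGACNNNGC, was found on either strand in 12 of 34 promoters (35.3%), against 13.6% of the 27305 promoters of the table. The core of the interferon-stimulated response element, a pair of GAAA 2 bases apart, was found in 4 of 34 (11.8%), against 3.65% of all. CCGGAAG, bound by ETS factors, was found in 9 (26.5% against 10.7%), and CCAAT in 16 (47.1% against 35.7%). No match of these motifs overlapped a match of another in these 34 promoters. Of these promoters 5 are printed because their genes recur in the results: PSMD5 and PSMD12 fell at 48 h, PSMB3 rose at 6 h, and PSME1 and PSMB10 are interferon-inducible genes with large shifts over time in untransfected cells. Each is given 5′ to 3′ on the gene's strand, with matches to either response element core, on either strand, in capitals.
PSMD5 (chr9:120842873-120843172, minus strand): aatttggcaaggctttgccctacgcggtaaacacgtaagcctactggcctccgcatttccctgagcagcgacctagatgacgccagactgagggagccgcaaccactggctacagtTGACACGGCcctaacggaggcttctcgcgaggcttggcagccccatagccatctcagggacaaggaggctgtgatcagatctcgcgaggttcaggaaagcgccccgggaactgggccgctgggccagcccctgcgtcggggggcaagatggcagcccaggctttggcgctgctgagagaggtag
PSMD12 (chr17:67366528-67366827, minus strand): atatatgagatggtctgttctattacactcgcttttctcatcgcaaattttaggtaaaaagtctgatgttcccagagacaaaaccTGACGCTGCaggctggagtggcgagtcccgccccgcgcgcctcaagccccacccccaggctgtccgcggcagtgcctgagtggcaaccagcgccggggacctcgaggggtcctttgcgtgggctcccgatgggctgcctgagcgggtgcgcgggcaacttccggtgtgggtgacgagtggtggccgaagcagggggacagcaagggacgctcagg
PSMB3 (chr17:38752491-38752790, plus strand): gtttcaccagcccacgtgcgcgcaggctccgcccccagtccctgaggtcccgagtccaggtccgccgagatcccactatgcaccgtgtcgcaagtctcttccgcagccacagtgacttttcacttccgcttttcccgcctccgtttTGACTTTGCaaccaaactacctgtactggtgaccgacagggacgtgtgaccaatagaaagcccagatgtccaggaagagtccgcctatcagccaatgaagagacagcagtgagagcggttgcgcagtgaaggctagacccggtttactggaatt
PSME1 (chr14:24135944-24136243, plus strand): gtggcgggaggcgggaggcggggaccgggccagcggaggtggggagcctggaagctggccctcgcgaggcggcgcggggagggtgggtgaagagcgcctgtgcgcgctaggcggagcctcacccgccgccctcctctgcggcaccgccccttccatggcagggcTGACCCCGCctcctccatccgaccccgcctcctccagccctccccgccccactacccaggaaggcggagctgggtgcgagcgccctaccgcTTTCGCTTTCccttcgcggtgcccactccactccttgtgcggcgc
PSMB10 (chr16:67936801-67937100, minus strand): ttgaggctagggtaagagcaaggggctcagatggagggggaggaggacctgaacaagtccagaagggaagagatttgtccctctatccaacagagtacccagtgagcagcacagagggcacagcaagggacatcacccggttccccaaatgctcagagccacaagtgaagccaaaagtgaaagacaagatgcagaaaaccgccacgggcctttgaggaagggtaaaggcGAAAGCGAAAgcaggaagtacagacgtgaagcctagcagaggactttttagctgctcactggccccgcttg
A match is a description of these letters and not a shown binding site.

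The range from the lowest to the highest of the 9 group means had a median of 0.65 over the 39 genes, against 0.79 over all 7825, and was under 1 for 35 of the 39 (89.7%, against 68.7% of all genes). The 39 genes were also brighter, with a median level of 9.56 against 6.53, and 23 of them lay above the 90th percentile of mean level. The part of brightness in the narrower ranges was not tested. The narrowest ranges were 0.24 for PSMD6, a lid subunit of the cap, and 0.26 for PSMB1, a beta subunit without a catalytic site. The 4 genes above 1 were PSMD10 (gankyrin, a chaperone of the cap's ATPases) at 1.83, PSMB9 and PSMB10 at 1.21 each, and PSMB8 at 1.13, the last 3 being the interferon-inducible subunits. PSMB9 was dim, with its mean level at the 12.4th percentile of the genes tested. PSMD10 was lowest in siNeg at 6 h, with a mean of 7.43, and highest in Control at 48 h, with 9.26. The lowest group mean was at 6 h for 32 of the 39 genes, and the highest was at 48 h for 32. The same counts were not made over all 7825 genes, whose median change from 6 to 24 h in Control was 0.12. Changes over time also depended on the scaling of the arrays: under median centring 9 of the 39 genes were called higher and 9 lower from 6 to 24 h in Control.

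**Figure D1:**
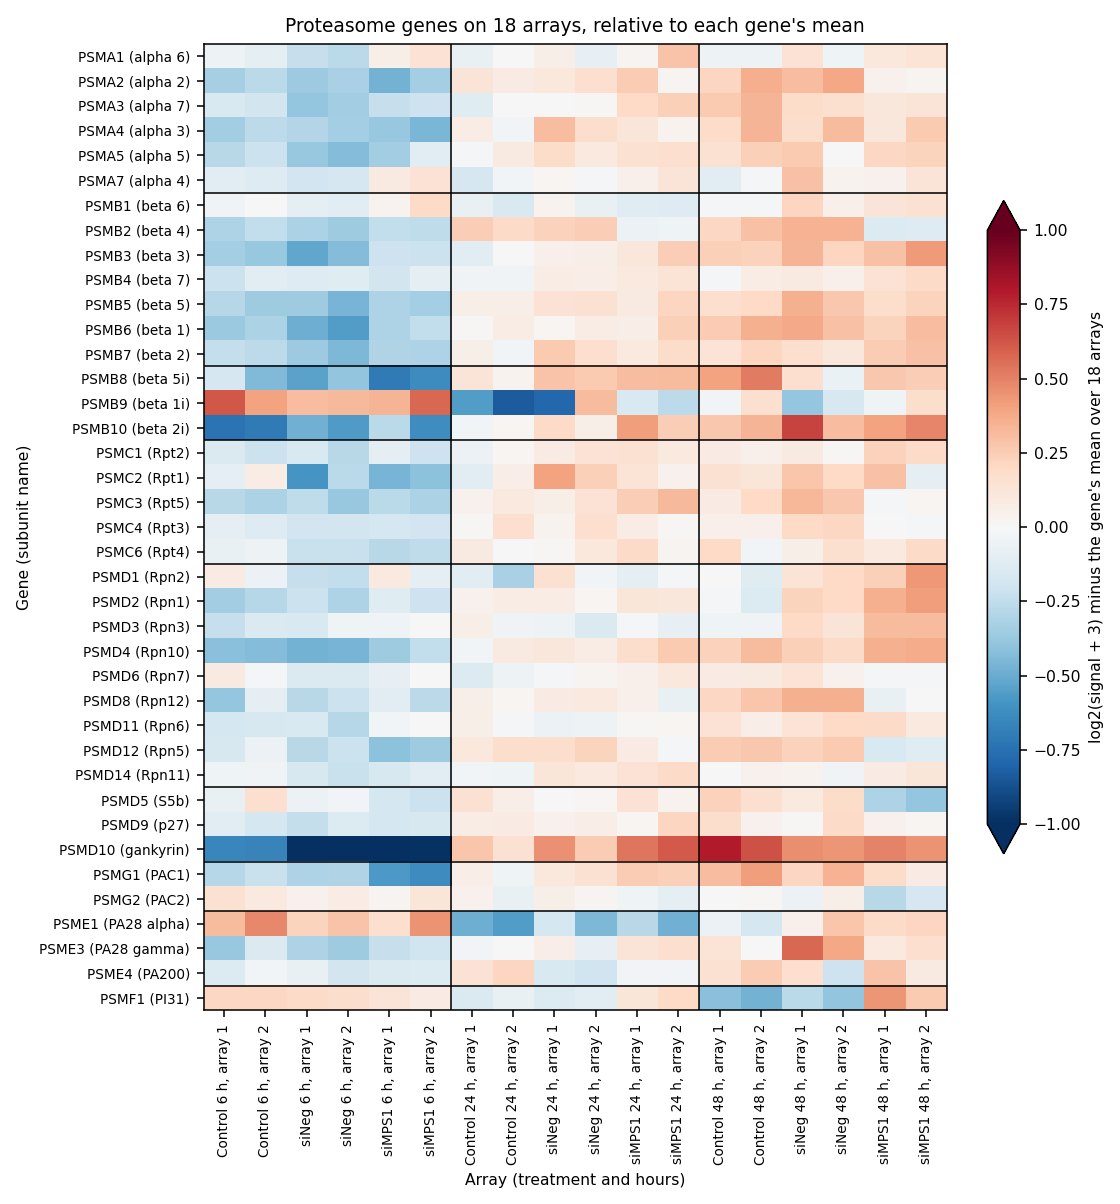
Each row is a proteasome gene and each column an array, grouped by 6, 24 and 48 h from left to right, and the colour gives log2(signal + 3) minus the gene's mean over the 18 arrays. Most rows are blue at 6 h and red at 48 h, PSMB9, PSME1, PSMF1 and PSMG2 are above their mean on all arrays at 6 h, and PSMD10 has the widest range of group means (1.83).

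At 6 h the siMPS1 arrays carried slightly more message for several core subunits than the siNeg arrays. Of the 39 genes 6 rose and 1 fell, where 7.69% of all genes tested were called (3.44% higher, 4.26% lower). Of the 6 that rose 5 were among the 16 core genes, 1 was among the 14 cap genes, and the gene that fell was among the 5 assembly chaperones. None of the 4 activator genes was called by limma, and 0 of them had an unadjusted p under 0.05. The median difference was 0.08 over the 39 genes and 0.01 over all genes.

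PSMA1, an alpha-ring subunit, read 10.98 and 11.06 on the siMPS1 arrays, 10.68 and 10.64 on siNeg and 10.86 and 10.82 on Control. Both siMPS1 arrays lay above the other 4, and siNeg lay below Control. It rose by 0.35 against siNeg (SE 0.08, adjusted p = 0.0131), and its 2 other probe sets gave 0.27 and 0.30. PSMA7, another alpha subunit, read 10.75 and 10.81 in siMPS1, 10.47 and 10.50 in siNeg and 10.54 and 10.53 in Control. It rose by 0.29 against siNeg (SE 0.07, adjusted p = 0.0229) and by 0.24 against Control (adjusted p = 0.0353), while its other probe set differed from siNeg by -0.03 and from Control by -0.20. PSMB3, a beta subunit without a catalytic site, read 9.82 and 9.81 in siMPS1, 9.51 and 9.59 in siNeg and 9.68 and 9.65 in Control. Its groups did not overlap, and it rose by 0.26 against siNeg (SE 0.07, adjusted p = 0.0237).

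PSMB6, the standard subunit with caspase-like activity, read 9.94 and 10.00 in siMPS1, 9.76 and 9.69 in siNeg and 9.88 and 9.93 in Control. It rose by 0.24 against siNeg (SE 0.07, adjusted p = 0.0324) and differed from Control by 0.06. PSMD11, a lid scaffold of the cap, read 9.99 and 10.02 in siMPS1, 9.86 and 9.73 in siNeg and 9.84 and 9.85 in Control. It rose by 0.21 (SE 0.06, adjusted p = 0.0431), and its other probe set gave 0.00. PSMB1 rose by 0.22 (SE 0.07, adjusted p = 0.0474). PSMG1, which with PSMG2 forms the chaperone that starts the alpha ring, moved the other way. It read 8.25 and 8.20 in siMPS1, 8.52 and 8.53 in siNeg and 8.54 and 8.61 in Control, and fell by 0.30 against siNeg (SE 0.07, adjusted p = 0.0142) and by 0.35 against Control (adjusted p = 0.00298).

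Set beside Control, which shares the siMPS1 arrays with the contrast above, 1 gene rose and 5 fell at 6 h, where 16.6% of all genes were called (9.3% higher, 7.28% lower). PSMA7 rose, and PSMG1, PSMD10 (-0.37), PSMD12 (-0.27), PSMC2 (-0.43) and PSMB8 (-0.36) fell. Called genes went from 6 higher and 1 lower against siNeg to 3 and 1 under median centring of the arrays and to 4 and 1 under quantile normalization. Against Control the split of 1 higher and 5 lower became 0 and 21 under centring and 4 and 5 under quantile normalization, and centring moved the median of all genes by -0.21 in that contrast. Against siNeg the count rests on all 4 arrays: without siNeg array 1, siNeg array 2 or siMPS1 array 2 it was 0, and without siMPS1 array 1 it was 3. Against Control it was 5, 3, 3 and 3 without Control array 1, Control array 2, siMPS1 array 1 and siMPS1 array 2. The siMPS1 arrays at 6 h also read higher on the Alu control probe set (12.96, against 12.48 in siNeg and 12.42 in Control, log2 signal) and on 18S (10.39, against 10.11 and 9.75), and the part of these in the differences was not tested.

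At 24 h, 3 of the 39 genes were called against siNeg, 2 higher and 1 lower, where 10.9% of all genes were called (5.12% higher, 5.81% lower). None of the 14 cap genes was called by limma (2 had an unadjusted p under 0.05), and none of the 5 assembly chaperones (1 under 0.05). PSMB2, a beta subunit without a catalytic site, read 10.33 and 10.34 in siMPS1, 10.61 and 10.63 in siNeg and 10.63 and 10.58 in Control. The siMPS1 pair lay below the other 4 arrays. It fell by 0.29 against siNeg (SE 0.05, adjusted p = 0.00162) and by 0.27 against Control (adjusted p = 0.00242), and its other probe set gave -0.15 against siNeg. PSMA3, an alpha subunit, read 9.84 and 9.88 in siMPS1, 9.65 and 9.66 in siNeg and 9.53 and 9.64 in Control. It rose by 0.21 against siNeg (SE 0.06, adjusted p = 0.02) and by 0.28 against Control (adjusted p = 0.00321). PSMF1, the inhibitor, read 7.54 and 7.62 in siMPS1, 7.28 and 7.32 in siNeg and 7.28 and 7.35 in Control. It rose by 0.28 against siNeg (SE 0.08, adjusted p = 0.0328), and its other probe set gave -0.05.

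The siMPS1 arrays at 24 h, set against Control instead, gave 8 calls, 7 higher and 1 lower, where 12.7% of all genes were called (5.5% higher, 7.19% lower). Beside PSMA3 and PSMF1 the genes that rose were PSMD10 by 0.36, PSMG1 by 0.24, PSMB3 by 0.23, PSMC3 by 0.21 and PSMD14, the cap's deubiquitinating enzyme, by 0.20. The rise of PSMF1 against Control was 0.27 on the chosen probe set, and its other probe set gave -0.39 (adjusted p = 0.058, over probe sets). Under median centring this split was 15 higher and 1 lower, and under quantile normalization 4 and 1. Against siNeg centring gave 1 higher and 1 lower. Without siNeg array 1, siNeg array 2 or siMPS1 array 2 the count against siNeg fell to 1, and without siMPS1 array 1 it was 3. Against Control it was 3, 3, 7 and 2 without Control array 1, Control array 2, siMPS1 array 1 and siMPS1 array 2. The siNeg arrays at 24 h read higher on the 18S control probe sets (10.62, against 9.96 in siMPS1 and 9.93 in Control), and its part in the results at 24 h was not tested.

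At 48 h, 9 of the 39 genes fell and 2 rose in siMPS1 against siNeg, where 29.2% of all genes were called (13.4% lower, 15.7% higher). The split was 9 lower and 6 higher under quantile normalization. Both siMPS1 arrays lay below both siNeg arrays for 13 of the 39, against 29.1% of all genes, and above both for 11, against 33.6%. The genes that fell were 2 of 16 in the core (PSMA2, PSMB2), 4 of 14 in the cap (PSMC3, PSMC4, PSMD8, PSMD12), 2 of 5 assembly chaperones (PSMD5, PSMG2) and 1 of 4 activators (PSME3). PSMD2 rose, as did the inhibitor PSMF1 on its brighter probe set, the other giving -0.79. The other 28 genes lay between -0.15 and 0.34. The median over the 39 genes was -0.02 against 0.03 over all genes, and it was 0.02 under quantile normalization and -0.05 under centring.

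**Figure D2:**
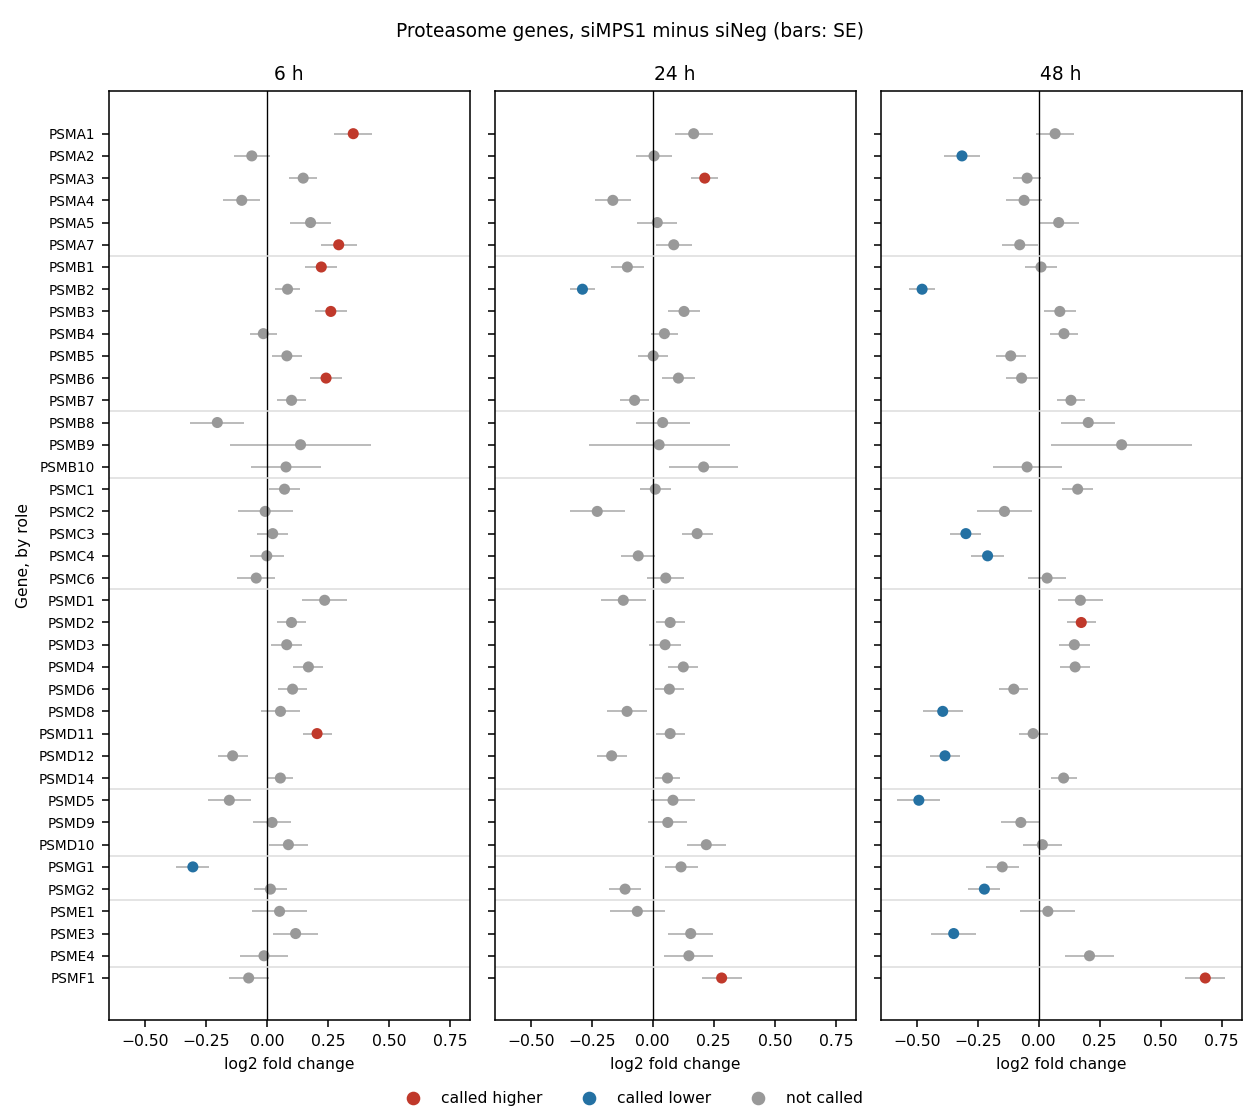
Each point is a proteasome gene's log2 difference of siMPS1 minus siNeg (x axis) at 6, 24 or 48 h, with a bar of 1 SE either side, and genes are grouped by role from the alpha ring at the top to PSMF1 at the bottom. Called genes are coloured: 6 red and 1 blue at 6 h, 2 and 1 at 24 h, and 2 and 9 at 48 h, with PSMF1 at 0.68 and PSMD5 at -0.49.

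In the core, PSMB2 read 10.24 and 10.26 in siMPS1 at 48 h, 10.73 and 10.73 in siNeg and 10.59 and 10.67 in Control. Both siMPS1 arrays were below the other 4, as at 24 h. The fall was 0.48 against siNeg (SE 0.05, adjusted p = 2.62e-06), the smallest p among the 39 genes in this contrast, with -0.38 against Control (adjusted p = 4.26e-05). Its other probe set gave -0.68 against siNeg. PSMA2, an alpha subunit, read 10.10 and 10.09 in siMPS1, 10.37 and 10.45 in siNeg and 10.28 and 10.43 in Control, and fell by 0.31 against siNeg (SE 0.07, adjusted p = 0.00368). Its other probe set gave -0.26 against siNeg but 0.20 against Control, where the chosen probe set gave -0.26.

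In the cap, PSMD12, a lid subunit, read 8.90 and 8.93 in siMPS1, 9.29 and 9.32 in siNeg and 9.31 and 9.33 in Control. It fell by 0.38 against siNeg (SE 0.06, adjusted p = 0.000132) and by 0.40 against Control (adjusted p = 0.000121), while its other probe set gave 0.04 and 0.21. PSMD8, also of the lid, read 9.21 and 9.28 in siMPS1, 9.64 and 9.64 in siNeg and 9.49 and 9.56 in Control. It fell by 0.39 against siNeg (SE 0.08, adjusted p = 0.00131) and by 0.28 against Control. PSMC3, an ATPase, read 9.83 and 9.86 in siMPS1, 10.17 and 10.11 in siNeg and 9.92 and 10.04 in Control. The fall of 0.30 against siNeg (SE 0.06, adjusted p = 0.0016) stood beside -0.14 against Control, which was not called (adjusted p = 0.12), with siNeg above Control. PSMC4, another ATPase, fell by 0.21 against siNeg (SE 0.07, adjusted p = 0.0292) and gave -0.06 against Control. PSMD2, the large docking subunit of the cap's base, read 10.69 and 10.75 in siMPS1, 10.56 and 10.53 in siNeg and 10.32 and 10.20 in Control, so that the 3 groups stood in steps. It rose by 0.17 against siNeg (SE 0.06, adjusted p = 0.0344) and by 0.46 against Control (adjusted p = 2.25e-05).

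Among the assembly chaperones, PSMD5, which holds the ATPases during assembly of the cap's base, read 7.03 and 6.95 in siMPS1, 7.44 and 7.52 in siNeg and 7.57 and 7.50 in Control. It fell by 0.49 against siNeg (SE 0.09, adjusted p = 0.00041) and by 0.55 against Control (adjusted p = 0.000205). PSMG2 fell by 0.22 against siNeg (SE 0.07, adjusted p = 0.0166) and by 0.23 against Control. All 5 assembly genes had both siMPS1 arrays below both Control arrays, as did 27% of all genes. In that contrast 4 of the 5 fell, where 12.2% of all genes were called lower: PSMD5, PSMG2, PSMG1 by 0.23 and PSMD10 by 0.25. PSMD9 gave -0.08 and was not called. Its groups were barely apart, with 8.43091 on siMPS1 array 1 and 8.43103 on Control array 2.

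Among the activators, PSME3, the nuclear activator of the core, read 7.65 and 7.72 in siMPS1, 8.13 and 7.94 in siNeg and 7.69 and 7.55 in Control. The siMPS1 and Control arrays overlapped and siNeg stood above both. It fell by 0.35 against siNeg (SE 0.09, adjusted p = 0.00828) and gave 0.07 against Control, and its other probe sets gave -0.95, -0.17 and 0.06 against siNeg. PSME1 and PSME4 were not called against siNeg, and PSME1 rose by 0.32 against Control (adjusted p = 0.0445).

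Set against Control at 48 h, the same siMPS1 arrays gave 14 calls, 5 higher and 9 lower, where 27.5% of all genes were called (15.2% higher, 12.2% lower). Both siMPS1 arrays lay above both Control arrays for 15 of the 39, against 36.2% of all genes, and below both for 14, against 27%. The genes that rose were PSMF1, PSMD2, PSMD1 by 0.40 (its other probe set gave 0.02), PSMD3 by 0.35 and PSME1, and PSMA3 was among those that fell, by 0.18. Called against siNeg, the split of 2 higher and 9 lower became 6 and 9 under quantile normalization and 1 and 9 under centring, and against Control 5 and 9 became 8 and 9 or 4 and 10. Without any 1 of the 4 arrays the count against siNeg was 8 or 9. Against Control it was 11, 7, 8 and 8 without Control array 1, Control array 2, siMPS1 array 1 and siMPS1 array 2. The siMPS1 arrays at 48 h had a larger 3′ to 5′ log2 ratio for the ACTB control probe sets (0.90, against 0.12 in siNeg and 0.20 in Control) and for GAPDH (0.29, against 0.05 and -0.03), and a higher 18S reading (10.80, against 9.48 and 9.75), and the part of these in the results at 48 h was not tested.

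PSMF1 had the largest rise of the 39 genes against siNeg at 48 h, and its 2 probe sets disagreed. The chosen, brighter probe set read 7.87 and 7.69 in siMPS1 at 48 h, 7.16 and 7.03 in siNeg and 7.01 and 6.95 in Control. It rose by 0.68 against siNeg (SE 0.08, adjusted p = 6.33e-06) and by 0.80 against Control (adjusted p = 1.72e-06). The dimmer probe set read 6.57 and 6.48 in siMPS1, 7.34 and 7.30 in siNeg and 6.76 and 6.82 in Control. It gave -0.79 against siNeg (adjusted p = 0.000134, over probe sets) and -0.26 against Control (adjusted p = 0.163, over probe sets). The mean of both probe sets differed from siNeg by -0.054. The direction of PSMF1 at 48 h therefore depended on which probe set was read.

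**Figure D3:**
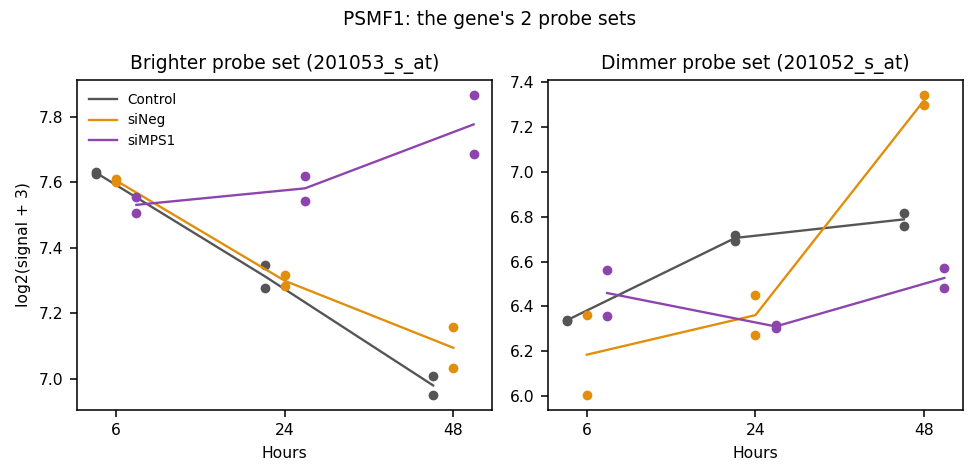
Log2(signal + 3) of the brighter (left) and dimmer (right) PSMF1 probe set by hours, each point an array, each line through the means of the 2 arrays of a treatment, with treatments set slightly apart sideways. On the left siMPS1 stands at 7.87 and 7.69 at 48 h with siNeg and Control below, and on the right siNeg stands at 7.34 and 7.30 with siMPS1 and Control below.

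The difference between siMPS1 and siNeg was then compared between times, which asks whether it changed. From 6 to 24 h it changed for 2 of the 39 genes, where 3.69% of all genes were called (1.89% upward, 1.8% downward). It moved by 0.42 for PSMG1 (SE 0.10, adjusted p = 0.0196), from -0.30 at 6 h to 0.12 at 24 h. PSMG1 read 9.08 and 9.06 in siMPS1 at 24 h, above 8.94 and 8.98 in siNeg and 8.89 and 8.78 in Control. For PSMB2 it moved by -0.37 (SE 0.07, adjusted p = 0.00855), from 0.09 to -0.29. The median over the 39 genes was -0.05, and 0.01 under centring, where 1 gene was called upward and 0 downward. Without 1 array the count was 3 (siMPS1 6 h array 1), 2 (siMPS1 24 h array 2) or, for each of the other 6 arrays, 1.

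From 24 to 48 h the difference changed for 6 of the 39 genes, 1 upward and 5 downward, where 15.8% of all genes were called (8.95% upward, 6.82% downward). PSMC3 moved by -0.48 (SE 0.09, adjusted p = 0.00129): at 24 h it read 10.08 and 10.17 in siMPS1, above 9.90 and 9.99 in siNeg and 9.88 and 9.94 in Control, and at 48 h below both. PSMD5 moved by -0.57 (SE 0.13, adjusted p = 0.00426), from 7.48 and 7.38 in siMPS1 and 7.34 and 7.36 in siNeg at 24 h. PSME3 moved by -0.50 (SE 0.13, adjusted p = 0.0133), from 7.68 and 7.72 in siMPS1 and 7.62 and 7.47 in siNeg at 24 h. Its 3 other probe sets moved by -0.86, 0.0041 and 0.16, and with averaged probe sets it was not called (-0.30, adjusted p = 0.125). On the chosen probe sets the siMPS1 arrays stood above siNeg for these 3 genes at 24 h, where none of them was called, and below it at 48 h. PSMA2 moved by -0.32, PSMA3 by -0.26 and PSMF1 by 0.40, and the other PSMF1 probe set by -0.74. The split of 1 upward and 5 downward was 2 and 4 under quantile normalization and 0 and 4 under centring. The count was 2 without siNeg 24 h array 2, 3 without siNeg 24 h array 1, siNeg 48 h array 2 or siMPS1 48 h array 1, and 4 or 5 without any of the other 4 arrays.

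The siNegative siRNA itself was set against untransfected cells. At 6 h 2 of the 39 genes were called, both lower, where 3.86% of all genes were called (2.88% higher, 0.984% lower). PSMD10 read 7.51 and 7.35 in siNeg, 7.48 and 7.56 in siMPS1 and 7.89 and 7.88 in Control, and fell by 0.45 against Control (SE 0.08, adjusted p = 0.00469). Both transfected groups lay below Control. PSMC2, an ATPase, read 9.44 and 9.76 in siNeg, 9.57 and 9.62 in siMPS1 and 9.94 and 10.11 in Control, and fell by 0.43 (SE 0.11, adjusted p = 0.0422). The median over the 39 genes was -0.07 against 0.02 over all genes, and both siNeg arrays lay below both Control arrays for 23 of the 39, against 24.3% of all genes. With the arrays median-centred these medians were -0.23 and -0.14. Under median centring, which moved the median of all genes by -0.16, 21 of the 39 were called lower, and without any 1 of the 4 arrays 1 was called.

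At 24 h limma called 0 of the 39 genes between siNeg and Control, where 0.933% of all genes were called (0.46% higher, 0.473% lower), and 7 of the 39 had an unadjusted p under 0.05. Their differences ran from -0.35 to 0.46, and centring gave 2 calls, both higher. At 48 h 4 genes rose and 2 fell, where 12.9% of all genes were called (6.79% higher, 6.1% lower). PSMD2 rose by 0.29 (SE 0.06, adjusted p = 0.00391) on the values given above. PSME3 rose by 0.42 (SE 0.09, adjusted p = 0.0059), and all 4 of its probe sets were higher in siNeg (0.25 to 1.02). PSMD3, a lid subunit, read 9.13 and 9.06 in siNeg and 8.89 and 8.89 in Control, and rose by 0.21 (SE 0.06, adjusted p = 0.041). PSMA7 read 10.96 and 10.70 in siNeg and 10.55 and 10.65 in Control, and rose by 0.23 (SE 0.07, adjusted p = 0.0495), with -0.10 on its other probe set. PSMB8 read 6.91 and 6.68 in siNeg and 7.15 and 7.26 in Control, and fell by 0.41 (SE 0.11, adjusted p = 0.0205). PSMD10 read 9.01 and 8.99 in siNeg and 9.34 and 9.18 in Control, and fell by 0.26 (SE 0.08, adjusted p = 0.0401). The groups did not overlap for any of these 6. Over the 39 genes both siNeg arrays lay above both Control arrays for 15, against 29% of all genes, and below both for 4, against 25.7%. Under centring the split was 2 and 2, and the count was 2, 1, 3 and 4 without Control array 1, Control array 2, siNeg array 1 and siNeg array 2.

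Most of the 39 genes changed with time in untransfected cells. From 6 to 24 h in Control, 26 of the 39 genes were called, 23 higher and 3 lower, where 43.1% of all genes were called (27.2% higher, 15.9% lower). The core gave 10 higher and 1 lower of 16, the cap 8 higher of 14, the assembly chaperones 3 higher of 5 and the activators 2 higher and 2 lower of 4. The median over the 39 was 0.22 against 0.12 over all genes. Under median centring, which moved the median of all genes by -0.17, the members' median was 0.04 against -0.05 and the split was 9 higher and 9 lower. Under quantile normalization it was 24 and 3.

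PSMD10 rose by 0.87 from 6 to 24 h (SE 0.08, adjusted p = 9.68e-08), reading 8.82 and 8.70 at 24 h. PSMB10, an interferon-inducible subunit, rose by 0.72 (SE 0.14, adjusted p = 0.000484), and PSMB2 by 0.50 (SE 0.05, adjusted p = 4.84e-07). PSMD4, a ubiquitin receptor of the cap, rose by 0.46, and its 2 other probe sets that passed the filter on low values gave 0.38 and 0.31. Against this run, PSMB9 fell by 1.21 (SE 0.29, adjusted p = 0.00242), PSMF1 fell by 0.32, and PSME1, the interferon-inducible activator, fell by 0.92 (SE 0.11, adjusted p = 3.14e-06), from 8.02 and 8.18 at 6 h to 7.22 and 7.15 at 24 h. In deposited log2 signal PSMB9 lay above the median of each Control array at 6 h and under it at 24 h (3.65 and 3.30, against 4.47 and 4.54), so its fall ended at low values. PSME1 also stood lower at 24 than at 6 h on the siNeg arrays (7.53 and 7.26 after 7.93 and 7.99) and the siMPS1 arrays (7.43 and 7.23 after 7.87 and 8.16). The siNeg and siMPS1 changes over time were not tested.

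Other probe sets of the same genes often gave another direction over time. Of the 13 other probe sets of called genes that passed the filter on low values, 5 had the sign of the chosen probe set. PSMD11 rose by 0.19 on the chosen probe set and gave -1.06 on the other (adjusted p = 8.02e-07, over probe sets). PSMA2 rose by 0.41 with -0.51 on the other (adjusted p = 0.000255, over probe sets), and PSMD12 by 0.25 with -0.37. PSME4, a large nuclear activator, rose by 0.26 with -0.48 and -0.30 on its others. PSMB2 and PSMD9 also differed in sign (-0.10 and -0.25 on the other probe sets), as did PSMF1 (0.37). The 3 other probe sets of PSME3 and the 2 of PSMD4 above the filter shared their gene's sign.

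From 24 to 48 h in Control, 10 of the 39 genes rose and 1 fell, where 19.5% of all genes were called (8.01% higher, 11.5% lower). PSMD10 rose again by 0.50 (SE 0.08, adjusted p = 0.000342), PSME1 by 0.41, PSMB8 by 0.38, PSMA3 by 0.36 and PSMG1 by 0.35. PSMF1 fell again by 0.33 on the chosen probe set, with 0.08 on the other. The median was 0.12 over the 39 genes and -0.05 over all genes. Under centring, which moved the median of all genes by 0.15, 27 rose and 0 fell, with a members' median of 0.28 against 0.10, and under quantile normalization 9 rose and 2 fell. The counts rest on the 24 h arrays as well as those at 48 h: 4, 6, 9 and 5 were called without Control 24 h array 1, 24 h array 2, 48 h array 1 and 48 h array 2. From 6 to 24 h the count was 17 without the 6 h array 1 and 19 to 21 without any of the other 3.

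**Figure D4:**
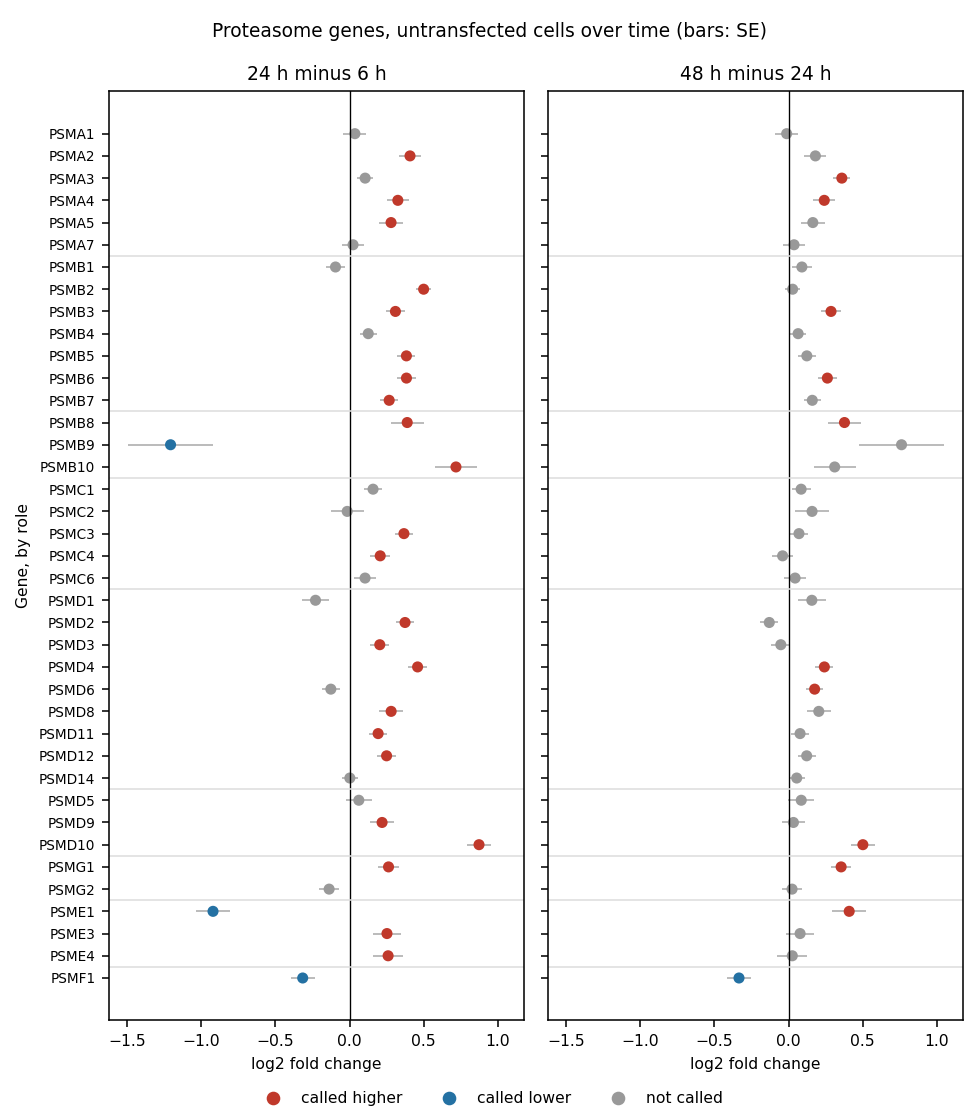
Each point is a proteasome gene's log2 difference between times in untransfected cells (x axis), 24 minus 6 h on the left and 48 minus 24 h on the right, with a bar of 1 SE either side and genes grouped by role. On the left 23 points are called higher and 3 lower (PSMB9 at -1.21, PSME1 at -0.92, PSMF1 at -0.32), and on the right 10 higher and 1 lower.

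The 3 catalytic subunits and their interferon-inducible counterparts were set side by side, each gene against itself. PSMB5 carries the chymotrypsin-like site, PSMB7 the trypsin-like site and PSMB6 the caspase-like site, and PSMB8, PSMB10 and PSMB9 replace them in that order. PSMB5 read 9.22 and 9.15 in Control, 9.16 and 9.05 in siNeg and 9.20 and 9.17 in siMPS1 at 6 h. At 24 h it read 9.57 and 9.57, 9.66 and 9.67, and 9.60 and 9.72 in that order, and at 48 h 9.68 and 9.71, 9.86 and 9.78, and 9.68 and 9.73. It was not called between siMPS1 and siNeg, with a 95% interval from -0.24 to 0.01 at 48 h. PSMB6, given at 6 h above, read 10.26 and 10.32 in Control, 10.27 and 10.32 in siNeg and 10.32 and 10.49 in siMPS1 at 24 h, and 10.50 and 10.60, 10.63 and 10.54, and 10.48 and 10.55 at 48 h. The groups overlapped at both later times, and the interval at 48 h ran from -0.21 to 0.07.

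PSMB7 read 10.23 and 10.21 in Control, 10.11 and 10.02 in siNeg and 10.17 and 10.16 in siMPS1 at 6 h. At 24 h it read 10.53 and 10.44, 10.73 and 10.64, and 10.56 and 10.65, and at 48 h 10.61 and 10.68, 10.64 and 10.59, and 10.73 and 10.76. The siMPS1 arrays were the highest at 48 h, by 0.13 over siNeg (95% interval 0.01 to 0.26, adjusted p = 0.103), which was called only under quantile normalization among the alternatives run.

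Of the inducible subunits, PSMB8 read 6.57 and 6.30 in Control, 6.20 and 6.34 in siNeg and 6.03 and 6.11 in siMPS1 at 6 h. At 24 h it read 6.87 and 6.78, 7.03 and 7.0, and 7.05 and 7.06, and at 48 h 7.15 and 7.26, 6.91 and 6.68, and 7.01 and 6.99. At 48 h siNeg was the lowest group and Control the highest. PSMB10 read 5.38 and 5.41 in Control, 5.64 and 5.55 in siNeg and 5.85 and 5.50 in siMPS1 at 6 h. At 24 h it read 6.09 and 6.14, 6.31 and 6.18, and 6.53 and 6.37, and at 48 h 6.39 and 6.46, 6.80 and 6.42, and 6.52 and 6.60. Every array at 24 or 48 h was above every array at 6 h.

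PSMB9 had the largest spread between arrays of a group, with a residual SD of 0.29 in the fit. It read 5.14 and 4.92 in Control, 4.82 and 4.84 in siNeg and 4.86 and 5.09 in siMPS1 at 6 h. At 24 h it read 3.96 and 3.69, 3.73 and 4.84, and 4.36 and 4.26, and at 48 h 4.49 and 4.68, 4.13 and 4.36, and 4.48 and 4.69. The siNeg arrays at 24 h stood far apart. None of the 3 inducible subunits was called by limma between siMPS1 and siNeg at 6, 24 or 48 h, and 0 had an unadjusted p under 0.05, with 95% intervals at 48 h from -0.03 to 0.44 for PSMB8, -0.27 to 0.95 for PSMB9 and -0.35 to 0.25 for PSMB10.

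**Figure D5:**
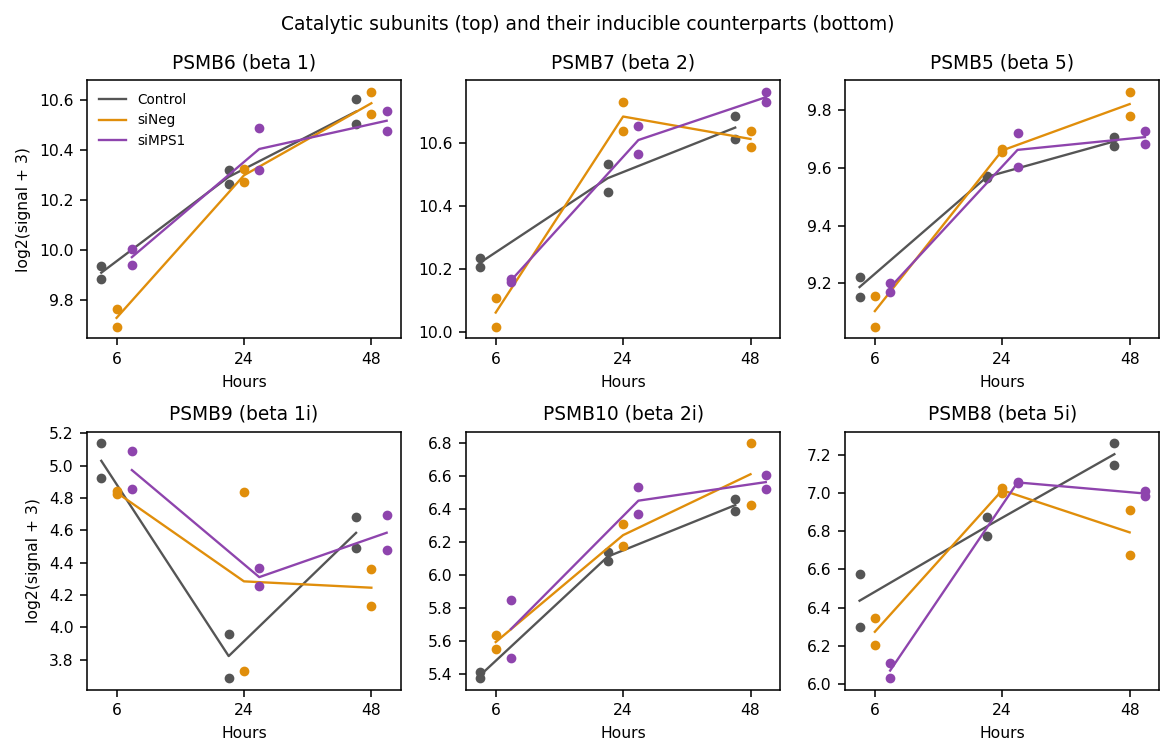
Log2(signal + 3) by hours for the 3 catalytic subunits (top) and the inducible subunit that replaces each (bottom), each point an array, each line through the means of a treatment's 2 arrays, with treatments set slightly apart sideways and a separate y axis for each gene. The top row, PSMB8 and PSMB10 are higher at 24 and 48 h than at 6 h in all 3 treatments, while PSMB9 in Control runs from 5.14 and 4.92 at 6 h to 3.96 and 3.69 at 24 h.

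Related genes were described from lists of the machinery around the proteasome, 43 of which were tested. Each was read from its brightest probe set, and other probe sets of these genes were not compared. Against siNeg 4 rose and 4 fell at 6 h, 0 rose and 4 fell at 24 h, and 14 rose and 3 fell at 48 h, where 7.69%, 10.9% and 29.2% of all genes were called. At 48 h, 11 rose and 3 fell in siMPS1 against Control, and 4 rose and 10 fell in siNeg against Control, where 27.5% and 12.9% of all genes were called. Of 7 genes tied to transcription of the subunit genes, 2 rose at 6 h, 0 were called at 24 h (0 with an unadjusted p under 0.05) and 3 rose at 48 h. NFE2L1, the factor itself, rose by 0.52 at 6 h and 0.37 at 48 h (SE 0.10 each). MAFG, a partner of NFE2L1, rose by 0.41 and 0.80, and MAFF by 0.72 at 48 h (SE 0.07 each). Of the 12 proteasome genes with TGACNNNGC in the promoter, 0 rose and 4 fell at 48 h, and of the 22 without it 2 rose and 5 fell. Over all genes 15.7% were called higher and 13.4% lower at 48 h. Among these members PSMD12, PSME3 and PSMF1 each had another probe set of the opposite sign. At 6 h the 12 gave 1 higher and 1 lower, and the 22 gave 2 higher and 0 lower, against 3.44% higher and 4.26% lower over all genes. PSMA7, PSMB1 and PSMB6, which also rose at 6 h, had no promoter entry and are in neither group. The part of NFE2L1 or of the element in the members' differences was not tested.

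Of 5 other subunits and assembly factors, ADRM1, a ubiquitin receptor of the cap, fell by 0.56 at 48 h (SE 0.08) and TXNL1 rose by 0.18, while against Control they gave 0.052 and 0.00069. Of 4 proteasome-bound ubiquitin enzymes, UCHL5, the deubiquitinating enzyme that ADRM1 recruits, fell by 0.37 at 6 h and by 0.41 at 48 h, and ECPAS, an adaptor of the complex, fell by 0.45 at 6 h and by 0.56 at 24 h. Of 5 shuttle factors, which carry ubiquitinated proteins, 3 rose at 48 h: SQSTM1 by 0.46 (SE 0.05), UBQLN2 by 0.45 and NBR1 by 0.37 (0.03 against Control). Over all genes 15.7% were called higher against siNeg at 48 h. UBQLN2 fell by 0.38 at 6 h. Of 5 genes of the segregase that unfolds substrates ahead of the proteasome, VCP rose by 0.35 and NPLOC4 by 0.30 at 48 h. NPLOC4 also rose by 0.28 at 6 h. Of 3 ubiquitin genes, UBB rose by 0.35 at 6 h and UBA1, the activating enzyme, fell by 0.53 at 48 h against siNeg but rose by 0.41 against Control.

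Of 14 genes of MHC class I presentation, which uses peptides the proteasome makes, 1 fell against siNeg at 6 h (ERAP2, by 0.92), 3 fell at 24 h and 5 rose at 48 h. Over all genes 4.26% were called lower at 6 h, 5.81% lower at 24 h and 15.7% higher at 48 h. TAP1, the peptide transporter subunit, fell by 0.59 at 24 h, with HLA-F by 0.44 and HLA-E by 0.38. At 48 h CALR rose by 0.76, PDIA3 by 0.38 and HLA-C by 0.26. Against Control 2 of the 14 rose at 48 h, with 0.77 for CALR, 0.13 for PDIA3 and -0.01 for HLA-C, while siNeg itself had 5 lower and 1 higher than Control. Over all genes 15.2% were called higher in siMPS1 against Control at 48 h, and 6.1% lower and 6.79% higher in siNeg against Control. The inducible subunits PSMB8, PSMB9 and PSMB10 were called in none of the 3 contrasts of siMPS1 with siNeg, as given above. PSMB8 fell by 0.41 in siNeg against Control at 48 h.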

How the data were processed

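The authors deposited 1 table of log2 MAS5 signals for 18 arrays. MAS5 comes from the submitters' processing notes. The log base was read from the values, whose linear form has nearly the same trimmed mean (100.1) on every array. That scaling fixes a total, so a gene's value depends on the other genes of its array. Array files were not used here, and their number limits the precision. Of 22277 probe sets 62 are array controls, 19064 name 1 gene, 1043 several and 2108 none. Symbols follow the platform table, with 19052 matched to RefSeq.

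The lowest 40% of probe sets by mean were left out, 3 was added to each linear signal before log2, and limma 3.58.1 (R 4.3.3) fitted the 9 group means over the 18 arrays, with an intensity trend, 9 residual degrees of freedom, two-sided tests and 13 contrasts. The fit was also run on simulated data with independent normal noise. Those data held no scaling shift and no disagreement between probe sets, so the run does not address these limits. Members and lists were chosen with earlier results of these data known. Values on each array are given for the catalytic and inducible subunits and for the 6 called members with the smallest p in each contrast of siMPS1 or Control with siNeg. For up to 3 called members in each change between times the difference is given, and for some of them values on each array. Other called members of siMPS1 minus siNeg get their difference, and related lists up to 3 called genes by p. Alternatives were other pseudocounts, quantile normalization, median centring, no filter, averaged probe sets, no trend, a replicate block, only the compared groups, and leaving out each array.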

Additional observations from a re-analysis of the deposited data

Results flagged for a closer look

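The difference between siMPS1 and siNeg changed between successive times for 2 of the 39 proteasome genes from 6 to 24 h and for 6 from 24 to 48 h, by a limma test of the change itself. These were 5.13% and 15.4% of the 39, against 3.69% and 15.8% of all genes, so the second share was near that of all genes. From 6 to 24 h PSMB2 moved by -0.37 and PSMG1 by 0.42. From 24 to 48 h PSMA2 moved by -0.32, PSMA3 by -0.26, PSMC3 by -0.48, PSMD5 by -0.57, PSME3 by -0.50 and PSMF1 by 0.40. The other probe set of PSMF1 and 2 of the 3 others of PSME3 had the opposite sign. Groups of 2 arrays are too small for a test of single arrays that stand apart.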

How the results depend on the processing

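Counts of called proteasome genes moved by over 1.5 times under the following alternatives, and the cause was not tested. Shares of all genes called are given above only for the fit with the chosen settings, and not for these alternatives. For siMPS1 minus siNeg at 6 h the 7 became 4 under centring, 4 without the filter and 0 without the intensity trend. At 24 h the 3 became 1 with averaged probe sets and 1 with only the compared groups. For its change from 6 to 24 h the 2 became 1 under centring, 1 with averaged probe sets and 0 without the trend, and from 24 to 48 h the 6 became 3 with only the compared groups. For siMPS1 minus Control the 6 at 6 h became 21 under centring, the 8 at 24 h became 5 under quantile normalization, 16 under centring, 4 without the trend and 3 with only the compared groups, and the 14 at 48 h became 9 without the trend. For siNeg minus Control the 2 at 6 h became 21 under centring, 4 with averaged probe sets, and 1 each under quantile normalization, without the filter, without the trend and with the replicate block. The 0 at 24 h became 2 under centring and 2 with only the compared groups, and the 6 at 48 h became 3 without the filter, 3 without the trend and 2 with only the compared groups. For Control from 24 to 48 h the 11 became 27 under centring.

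Without 1 array, where the lone array of a group is taken to vary like the other groups, the counts ran from 0 to 3, 1 to 3 and 8 to 9 for siMPS1 minus siNeg at 6, 24 and 48 h. They ran from 3 to 5, 2 to 7 and 7 to 11 for siMPS1 minus Control, and from 1 to 1, 0 to 0 and 1 to 4 for siNeg minus Control. The changes between times gave 1 to 3 and 2 to 5, and Control over time 17 to 21 and 4 to 9.

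PSMF1 in siMPS1 minus siNeg at 48 h turned from 0.68 to -0.054 with averaged probe sets. It was the 1 change of sign with a call in either fit among 612 values of named members under the alternatives. Of these values 562 stayed on their side of the threshold, 44 lost their call and 5 gained a call. A change of sign where neither fit was called is counted in the 562, so they are not a count of kept directions. Among 292 values without 1 array no sign changed where either fit was called. Calls were lost more often there than under the alternatives, so many of the calls rest on single arrays. PSMB2, PSMD5, PSMD8 and PSMC3 at 48 h stayed called in all 9 alternatives and 4 left-out fits.

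Deviations of same-numbered arrays correlated from -0.14 to 0.11 over 36 pairs of groups (1 above 0.1). These values show no strong pairing by replicate number, but they do not settle whether same-numbered arrays share a culture or batch. With the replicate block 1 member instead of 2 was called for siNeg minus Control at 6 h, PSMC2 being lost. PSMA7 was lost at 48 h, and no other named member lost its call under the block.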
